A study of Mus musculus with 4 samples.

Results

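The members of the Bcl2 family set, for cells, the threshold at which mitochondria release the proteins that start apoptosis. The 10 genes examined here comprised 4 pro-survival genes (Bcl2, Bcl2l1, Mcl1 and Bcl2l2) and 6 pro-death genes (Bcl2l11, Bax, Bak1, Bbc3, Pmaip1 and Bid). The genes were given by name, and every chromatin region that overlapped a gene body or the 10 kb on either side of it was taken, which gave 76 regions of 71243 in all. Each region is a stretch covered by at least 1 ATAC-seq peak in at least 1 library, with peaks that overlapped by at least 1 bp joined across libraries. Of these regions, 43 lay at the pro-survival genes and 33 at the pro-death genes. Positions are given on mm10 with GENCODE vM21 genes.

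The libraries came from bone marrow-derived macrophages (BMDMs), the cells that grow out of marrow in macrophage growth factor, cultured for 6 to 8 days. WT cells carried H3f3a fl/fl H3f3b fl/fl alleles and no Cre, and cKO cells carried the same floxed alleles with LysM cre/cre, which drives Cre from the lysozyme locus in myeloid cells, so that both genes for the histone variant H3.3 were targeted. Both genotypes were on a C57BL/6 background, from male and female mice of 8 to 10 weeks, with 2 biological replicates each, and the labels do not name the animals behind each replicate. As WT cells lacked Cre, an effect of the Cre allele and an effect of the deletion cannot be told apart in this design. ATAC-seq marks open chromatin by where a transposase can insert adapters, and the comparison asks where that openness differed once H3.3 was targeted.

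Proteins of the family act at the outer mitochondrial membrane. Bax and Bak1 form the pores through which cytochrome c leaves, the pro-survival proteins hold them in check, and the BH3-only proteins (products of Bcl2l11, Bbc3, Pmaip1 and Bid) bind the pro-survival proteins or engage Bax and Bak1 directly. Bbc3 (encoding PUMA), Pmaip1 (encoding NOXA) and Bax are well-known targets of p53, the transcription factor that answers DNA damage. Resident macrophages are long lived, and Mcl1 and Bcl2l1 are among the survival genes used in the myeloid lineage.

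The deposited lists held 55742 and 64939 peaks in WT replicates 1 and 2 and 51955 and 60884 in cKO replicates 1 and 2, so the lists of replicate 2 were the longer ones, and the number of reads behind each is unknown. For each peak the peak caller gave an area under its significance curve, which grows with depth. The area was therefore turned into a percentile among all peaks of its own library, from 0 for the weakest peak to 100 for the strongest, and a region took the percentile of its strongest peak. The 4 values of a region are given as WT replicates 1 and 2, then cKO replicates 1 and 2. A start site was covered by a region in all 4 libraries for 6 of the 7 macrophage markers examined (Spi1 was the exception, at 0 libraries) and in none for the 18 markers of T cells, B cells, neutrophils and progenitors, erythroid cells and fibroblasts. As a check of the deletion, the region over exon 2 of H3f3a, the floxed exon, stood at 5.02 and 19.1 in WT and was not called in either cKO library. Both WT values are low, so this check rests on weak peaks. At H3f3b, where the floxed stretch spans the exons, both regions over the gene were called in all 4 libraries. The one over exons 1 to 3 of transcript H3f3b-201 stood at 94.2 and 95.5 in WT and at 87.0 and 81.4 in cKO, and the one over exon 1 of H3f3b-202 at 23.7 and 34.3 in WT and at 28.7 and 42.5 in cKO, so removal of H3f3b was not visible as a lost region. The paper describes H3f3b deletion as apparently variable, complete in some cKO samples and partial in others. How much of H3f3b was left in these cultures was not tested.

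Every one of the 10 start sites was covered by a region in all 4 libraries. At the start sites, Bbc3 and Pmaip1 ranked higher in both cKO than in both WT libraries. Bcl2l1, Mcl1, Bcl2l2 and Bcl2l11 ranked lower, and the genotypes overlapped at Bcl2, Bax, Bak1 and Bid. Per length of peak, Bcl2l1 and Mcl1 stayed lower, while the differences of Bcl2l2 and Bcl2l11 had the opposite sign. Both higher start sites overlapped between genotypes per length of the strongest peak. Bbc3 stood at 31.9 and 70.1 in WT against 56.6 and 58.5 in cKO. Pmaip1 stood at 72.9 and 72.8 against 71.5 and 79.9. By area, 2 of 10 start-site regions were higher and 4 of 10 lower, beside 20.8% higher and 33.6% lower among the 10237 regions over protein-coding start sites called in all 4 libraries. The lower share was close to that background, and so was the higher one. The differences ran from -10.0 points at Bcl2l2 and -8.71 at Bak1 to 6.31 at Bax and 19.8 at Bbc3, and the other 6 lay between them, as the plot of the start-site regions shows.

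**Figure D1:**
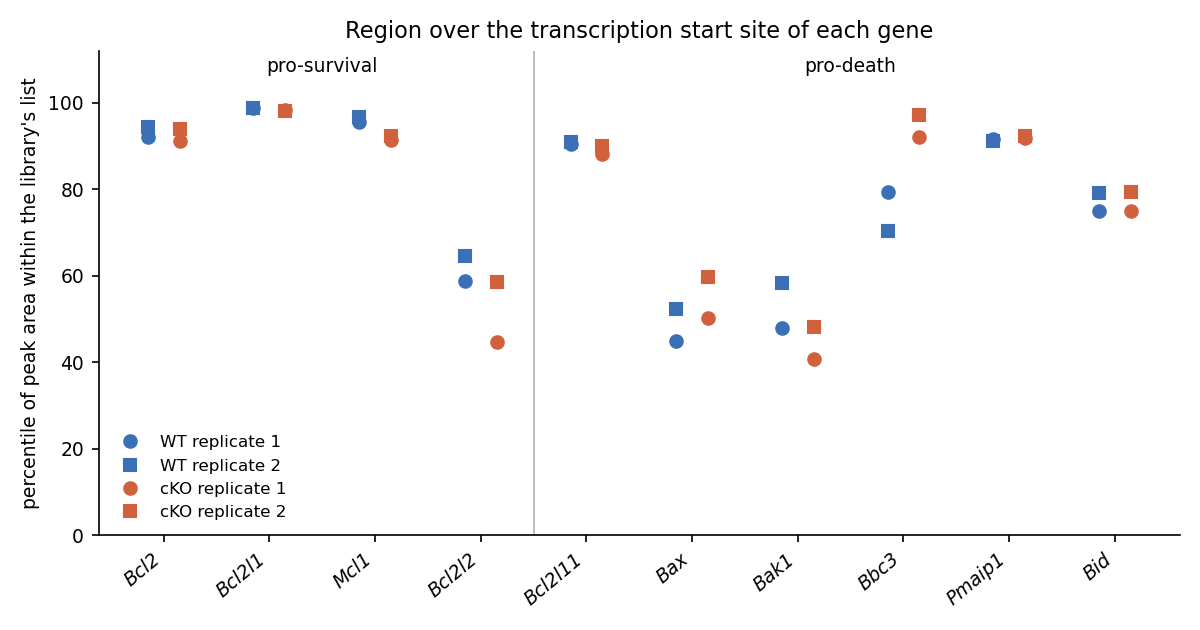
Percentile of peak area within each library's own list (vertical axis, 0 to 100) for the region over the start site of each gene (horizontal axis), 1 point a library, blue for WT and orange for cKO, circles for replicate 1 and squares for replicate 2. Bbc3 moved from 79.4 and 70.2 in WT to 92.1 and 97.1 in cKO, while the 4 points of Bcl2l1 lay between 98.2 and 98.9.

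To set the genes in order, the area was divided by the width of the peak and ranked again, since a wide peak collects more area. A region took the value of the peak with the largest area, as before. On this per-length percentile Bcl2l1 stood highest (91.4 to 94.7 over the 4 libraries), with Bcl2l11 (85.4 to 91.2) just below it and not overlapping. Pmaip1 (71.5 to 79.9), Bcl2 (66.0 to 76.8) and Mcl1 (52.5 to 79.995) overlapped each other. Bbc3 (31.9 to 70.1), Bid (33.9 to 74.3) and Bak1 (34.8 to 59.6) also overlapped their neighbours. Bcl2l2 (14.0 to 35.2), which just reached Bak1, and Bax (9.15 to 26.9) were lowest and overlapped each other. The pore-forming genes Bax and Bak1 thus stood near the bottom of this order, and Bcl2l1, which encodes the survival protein BCL-XL, at the top.

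Over all 76 regions, 54 were called in all 4 libraries. A region was counted as gained when it was called in both cKO and in neither WT library, and as lost in the reverse case. Gained regions numbered 2 of 76, beside a background of 3.72% over all 71243 regions. Lost regions numbered 3 of 76, beside 7.25%. A region called in all 4 libraries was counted as higher when both cKO percentiles lay above both WT percentiles, and as lower in the reverse case. Of the 54, 17 were higher (31.5%) and 14 lower (25.9%), beside 22.2% higher and 35.1% lower over the 44820 regions called in all 4 libraries, and in 23 the genotypes overlapped. The other 17 regions were called in some libraries of both genotypes or in 1 library alone (9 missed a single library, 7 appeared in a single one). In a bulk culture, a site that is more open in every cell and one that is open in more of the cells cannot be told apart. The balance of higher against lower calls moved with the ranking. With percentiles taken only among peaks in regions common to all 4 libraries, 26 were higher (48.1%) and 14 lower, beside 36.5% and 35.7%. With each list cut to the length of the shortest, 25 were higher and 14 lower, beside 36.8% and 35.7%, while by area per length it was 13 and 12, beside 22.7% and 29.9%. An exact permutation test of 2 against 2 libraries, two-sided, cannot go below p = 0.333, so no single region could pass a conventional threshold, and the calls describe these 4 libraries.

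The pro-death genes had more higher than lower calls, and the pro-survival genes slightly more lower than higher ones. At the pro-death genes, 9 of 25 regions called in all 4 libraries were higher (36%) and 4 lower (16%). At the pro-survival genes, 8 of 29 were higher (27.6%) and 10 lower (34.5%), close to the 22.2% and 35.1% of all regions. The pro-death split was wider with lists of equal length, at 16 higher and 4 lower of 24, beside 36.8% and 35.7%, and among peaks common to all 4 libraries, at 16 and 4 of 25. It was narrower per length, at 6 higher and 5 lower, or 24% and 20% beside 22.7% and 29.9%. Without WT replicate 1 it was 10 and 10 of 28, or 35.7% each, beside 25% higher and 54.5% lower over all regions. Without cKO replicate 2 it was 9 and 10 of 25, or 36% and 40%, beside 23.4% and 56.6%. Without WT replicate 2 it was 15 and 4 of 26, beside 41.4% and 35.9%, and without cKO replicate 1 it was 17 and 6 of 26, beside 38.7% each. The median difference between cKO and WT was 3.46 percentile points at the pro-death regions and -0.60 at the pro-survival regions, beside -1.10 over all regions called in all 4 libraries. Bbc3 alone gave 4 of the 9 higher calls. Without it, which was left out after its values were seen, 5 of 21 pro-death regions were higher and 4 lower, with a median difference of 1.08.

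Taking the median over regions within each library gave the same order. The pro-death median was 47.9 and 61.7 in the WT libraries against 65.1 and 71.5 in the cKO ones, so both cKO libraries stood above both WT libraries. That amounts to 54.8 ± 9.78 against 68.3 ± 4.50 (mean ± SD, n = 2 each), 13.5 points higher in cKO. The median fell on different regions, namely Bak1 region 2 in WT replicate 1 and Pmaip1 region 1 in cKO replicate 2. In WT replicate 2 and cKO replicate 1 it fell on Bbc3 region 1. The 13.5 points are therefore a difference of medians, and the median of the differences of single regions was only 3.46. The pro-survival median was 67.0 and 71.7 in the WT libraries against 63.9 and 67.1 in the cKO ones, so the genotypes overlapped, with a difference of -3.86 points. Over all regions the library medians were 59.1 and 65.0 for WT against 56.1 and 62.6 for cKO. The pro-death difference was 0.0861 points with only the peaks above the median area of their list, and with the gene bodies alone, without flanks, it was 5.11 points. In both of these settings the genotypes overlapped. The difference was 6.58 points without WT replicate 1. No p is given for these medians, because the genes were chosen with earlier results of these data known.

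**Figure D2:**
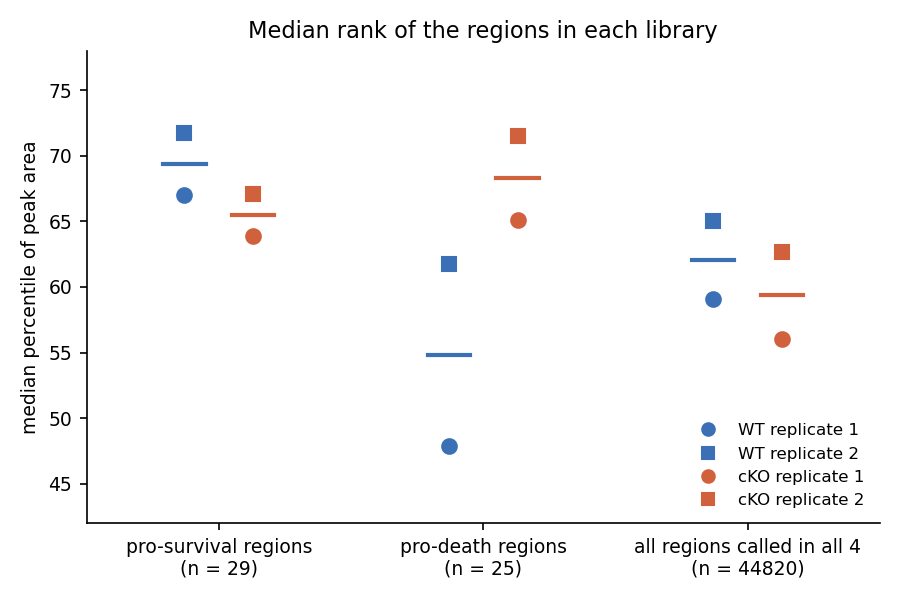
Median percentile of peak area over the regions called in all 4 libraries (vertical axis, which does not start at 0), for the 29 pro-survival regions, the 25 pro-death regions and all 44820 regions, 1 point a library and a bar at the mean of each genotype. Only for the pro-death regions did both cKO points lie above both WT points.

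Bbc3 (ENSMUSG00000002083.13, chr7:16308393-16318205, forward strand), a BH3-only gene, had 5 regions. The 4 that were called in every library were higher in cKO. Among the 4368 protein-coding genes with at least 4 such regions, 0.801% had all of them higher. Among the 7091 with at least 3, the share was 1.73%. Both sets include genes with more regions than Bbc3, for which all higher is a stricter condition. The start-site region (region 2, chr7:16308501-16310685, reaching into the first intron) stood at 79.4 and 70.2 in WT and at 92.1 and 97.1 in cKO, or 74.8 ± 6.497 against 94.6 ± 3.55 (SD, n = 2 each), a difference of 19.8 points. It began past the 5′ end of the gene and covered a transcript start site 23 bp from its centre. In WT replicate 2 its value of 70.2 came from a peak at 16309884-16310453, past that start site. Within this region the calls differed in shape, with 2 and 3 separate peaks in the WT libraries and 2 and 1 in cKO. The strongest peak was 1195 and 570 bp wide in WT and 1482 and 2181 bp in cKO. Per length, this peak stood at 31.9 and 70.1 in WT and at 56.6 and 58.5 in cKO, so the genotypes overlapped, with a difference of 6.51 points. The strongest peak of WT replicate 1 had its summit at 16309426, and those of the other libraries had theirs between 16310195 and 16310199. A weaker 570 bp peak of WT replicate 1 had its summit at 16310200. With the highest value per length, the peaks at this shared summit were compared, and both cKO libraries lay below both WT. The values were 63.6 and 70.1 in WT against 56.6 and 58.5 in cKO, and the difference reversed to -9.30. By the strongest peak per length, 1 of the 4 regions remained higher and none was lower. By the highest value, 1 was higher and 1 lower.

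Downstream of the Bbc3 start site, an intronic region (region 3, chr7:16311071-16312016) was absent from WT replicate 1, stood at 4.95 in WT replicate 2, and reached 52.3 and 55.4 in cKO. It missed the definition of a gained region only through that weak WT peak, which was 314 bp wide beside 940 and 906 bp in cKO. Region 4 (chr7:16312115-16314414), the strongest of the gene and also intronic, stood at 96.1 and 97.2 in WT and at 98.7 and 99.1 in cKO, a difference of 2.25 points that held its direction per length. An upstream region (region 1, 8632 bp before the 5′ end) moved from 47.7 and 61.7 to 65.1 and 71.6. The fifth region lay in the body of the neighbouring gene Sae1, 17945 bp from the Bbc3 5′ end, and stood at 45.7 and 50.5 in WT and at 59.2 and 62.0 in cKO. Each of the 5 regions thus ranked higher in both cKO libraries than in any WT library that called it.

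The bases around the summits of regions 2 and 5 of Bbc3 are shown because they differ in kind, an intragenic window of the start-site region, rich in G and C, and a distal window with 3 motif matches. Each window holds 201 bp, 100 on either side of the summit of the highest-ranked peak, on the forward strand of RefSeq's GRCm38.p6 (mm10), and capitals mark matches to an AP-1, NF-kB or p53 half-site motif.
Bbc3 region 2, chr7:16310099-16310299: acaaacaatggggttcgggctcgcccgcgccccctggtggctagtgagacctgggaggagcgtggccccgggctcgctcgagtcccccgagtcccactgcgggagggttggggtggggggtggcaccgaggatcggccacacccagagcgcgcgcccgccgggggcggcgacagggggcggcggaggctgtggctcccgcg
Bbc3 region 5, chr7:16326280-16326480: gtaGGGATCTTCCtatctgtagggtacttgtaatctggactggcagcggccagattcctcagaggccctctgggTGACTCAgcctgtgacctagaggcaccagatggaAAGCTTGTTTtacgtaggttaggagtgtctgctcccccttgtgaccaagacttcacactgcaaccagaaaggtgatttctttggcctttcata
G and C made up 76.1% of the first window and 50.7% of the second. No motif of the 7 searched matched in the first.

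Pmaip1 (ENSMUSG00000024521.8, chr18:66458533-66465565, forward strand), whose product NOXA is a BH3-only protein that binds MCL-1, had 6 regions. Of the 5 called in all 4 libraries, 2 were higher, none lower and 3 overlapping. The upstream region (region 1, chr18:66453208-66453762, 5048 bp before the 5′ end) stood at 37.2 and 45.2 in WT and at 65.7 and 71.5 in cKO, or 41.2 ± 5.68 against 68.6 ± 4.14 (SD, n = 2 each). Its difference of 27.3 points lay above that of 98.2% of all regions called in all 4 libraries, and the genotypes were also apart per length (17.7 and 25.2 against 68.4 and 71.2). The start-site region stood at 91.6 and 91.0 in WT and at 91.8 and 92.2 in cKO, a difference of 0.661 points, small beside the upstream one. Per length the genotypes overlapped at the start site (72.9 and 72.8 in WT against 71.5 and 79.9 in cKO). A pair of regions past the gene also leaned higher in cKO by area, with overlapping genotypes. Region 5 stood at 23.8 and 53.002 in WT and at 51.9 and 55.2 in cKO, and region 6 at 30.5 and 41.1 in WT and at 38.9 and 54.5 in cKO. Region 4 was called only in cKO replicate 2, at 27.4.

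**Figure D3:**
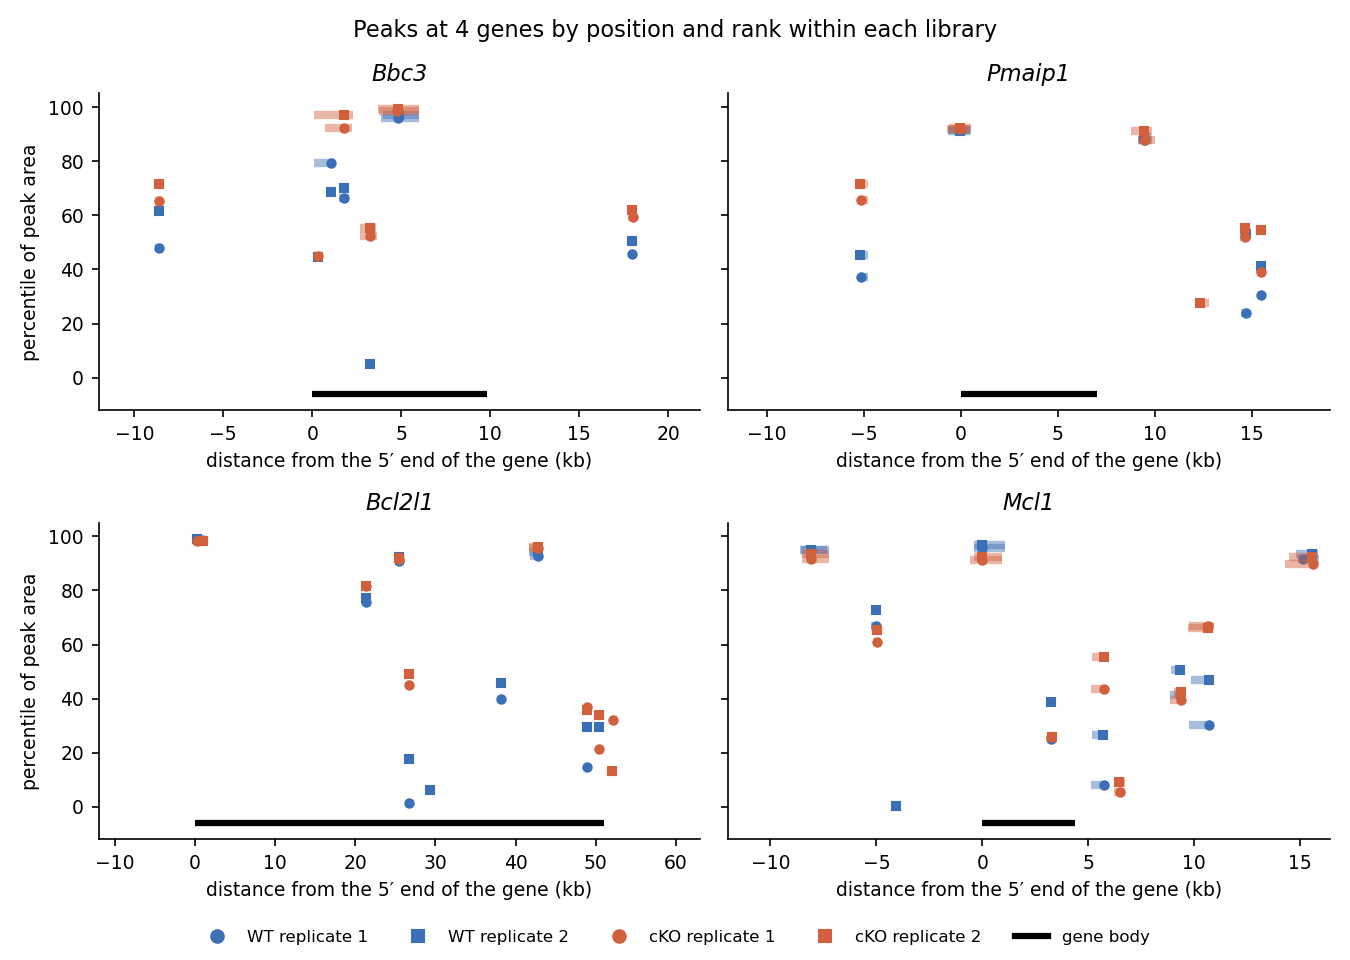
Peaks of the 4 libraries at Bbc3, Pmaip1, Bcl2l1 and Mcl1, with distance from the 5′ end of the gene in kb on the horizontal axis, in the direction of transcription, and percentile of peak area on the vertical axis. Points mark summits, pale bars the extent of the peak, blue WT and orange cKO, circles replicate 1 and squares replicate 2, and the black bar is the gene body. At some distal peaks of Bcl2l1 and Mcl1 the orange points stood above the blue ones (45.1 and 49.2 against 1.40 and 17.8 in Bcl2l1 region 4), at others they did not, and at both start sites they stood below.

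Bid (ENSMUSG00000004446.12, chr6:120891930-120916853, reverse strand), which links death receptors to mitochondria once caspase-8 has cut its product, had 9 regions. Among the 6 called in every library, 2 were higher, none lower and 4 overlapping. Region 2, in the first intron (chr6:120914621-120915703), stood at 70.1 and 77.8 in WT and at 89.0 and 90.3 in cKO, or 73.9 ± 5.40 against 89.7 ± 0.897 (SD, n = 2 each), a difference of 15.7 points. Per length the values were 41.5 and 39.5 in WT against 72.8 and 77.2 in cKO. The start-site region next to it did not follow, with 75.1 and 79.1 in WT against 75.03 and 79.3 in cKO. Region 4, intronic, was also higher, from 35.0 and 43.1 to 43.4 and 45.2, a gap of 0.336 points between the nearest libraries. Region 9, at the far end of the window and inside the body of Bcl2l13, another gene of the family, was lost, with 3.65 and 11.9 in WT. The window at the summit of region 2 is shown as the intronic site with the clearest difference in Bid, and none of the motifs matched in it.
Bid region 2, chr6:120915294-120915494: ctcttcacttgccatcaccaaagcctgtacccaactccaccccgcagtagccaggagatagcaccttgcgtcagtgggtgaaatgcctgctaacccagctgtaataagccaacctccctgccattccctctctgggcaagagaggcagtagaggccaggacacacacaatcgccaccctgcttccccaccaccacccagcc

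Bcl2l11 (ENSMUSG00000027381.16, chr2:128126038-128162547, forward strand), which encodes BIM, a BH3-only protein that binds all the pro-survival members, ran against the other BH3-only genes. All 3 of its regions called in every library were lower in cKO, as were all such regions in 4.57% of the 7091 protein-coding genes with at least 3 of them. That set includes genes with more regions than Bcl2l11, for which all lower is a stricter condition. The start-site region stood at 90.5 and 91.0 in WT and at 88.2 and 90.0 in cKO, and its difference of -1.62 points reversed to 1.19 when ranked by the summit -log10 p and to 2.07 per length. Region 3, in the first part of the gene (chr2:128127061-128128327, intronic), stood at 93.1 and 92.2 in WT and at 83.8 and 89.9 in cKO. Region 4, 27708 bp into the gene (chr2:128153479-128154014), stood at 32.8 and 37.4 in WT and at 27.5 and 22.9 in cKO, or 35.1 ± 3.25 against 25.2 ± 3.30 (SD, n = 2 each). Both kept their direction in each ranking tried. A weak upstream region was called in 3 libraries, at 21.4 and 22.9 in WT and at 14.8 in cKO replicate 2. The window of region 4 is given as the intronic site with the largest lower difference among the pro-death genes, and it held no motif match.
Bcl2l11 region 4, chr2:128153678-128153878: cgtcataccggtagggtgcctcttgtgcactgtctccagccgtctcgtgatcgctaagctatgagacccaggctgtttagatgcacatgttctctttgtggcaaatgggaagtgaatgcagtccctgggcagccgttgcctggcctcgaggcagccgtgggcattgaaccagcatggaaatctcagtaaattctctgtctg

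Bax (ENSMUSG00000003873.11, chr7:45461697-45466898, reverse strand) had 4 regions, all called in every library. Its start-site region stood at 44.9 and 52.3 in WT and at 50.2 and 59.7 in cKO, so the genotypes overlapped. The other 3 regions lay past the gene and nearest to the start site of Ftl1, which encodes the ferritin light chain. Region 2 was lower (67.6 and 72.9 against 60.9 and 67.2), region 3, over the Ftl1 start site, overlapped (91.5 and 94.0 against 91.4 and 92.6), and region 4, in the bodies of Ftl1 and Gys1, was higher (93.9 and 94.2 against 97.5 and 97.5). The higher and the lower call in the Bax window therefore belonged to regions nearer another gene.

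Bak1 (ENSMUSG00000057789.14, chr17:27019810-27029009, reverse strand) had 5 regions and none was gained, lost, higher or lower. The start-site region stood at 47.9 and 58.4 in WT and at 40.7 and 48.2 in cKO, so the genotypes overlapped narrowly. Bak1 regions 3 and 4, both intronic, differed by 4.002 and 3.86 points with overlapping genotypes. Region 1 (chr17:27038287-27038938, 9603 bp before the 5′ end and nearest to the start site of Ggnbp1) was called at 2.57 in WT replicate 1, not at all in WT replicate 2, and at 49.8 and 63.8 in cKO. It resembled region 3 of Bbc3 in being nearly absent from WT and of middle rank in both cKO libraries.

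Bcl2l1 (ENSMUSG00000007659.18, chr2:152780668-152831728, reverse strand) differed little at the start site and more at some sites within the gene. The start-site region was among the strongest of each list, at 98.7 and 98.9 in WT and at 98.2 and 98.2 in cKO, a difference of -0.572 points. That was close to the median of -0.413 over all regions at protein-coding start sites. It lay above the difference of 53.4% of all regions called in all 4 libraries. Region 4, in the intron 26656 bp from the 5′ end (chr2:152804815-152805329), stood at 1.40 and 17.8 in WT and at 45.1 and 49.2 in cKO, or 9.62 ± 11.6 against 47.2 ± 2.85 (SD, n = 2 each). Its difference of 37.5 points was the largest of the 54 member regions and lay above that of 99.5% of all regions called in all 4 libraries. Per length it remained in the same direction (8.19 and 15.3 against 23.6 and 51.8), and the peak was 249 and 297 bp wide in WT and 504 and 378 bp in cKO.

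A further 3 intronic regions of Bcl2l1 were higher. Of these, regions 7 and 8 lay nearest to the start site of another gene, Cox4i2, at 34226 and 27694 bp. Region 7 stood at 92.6 and 94.4 in WT and at 95.8 and 96.0 in cKO. Region 2 moved from 75.8 and 77.1 to 81.8 and 81.5, a difference of 5.21 points that reversed to -2.44 by the summit -log10 p and to -5.68 per length. Region 8 moved from 14.6 and 29.7 to 37.0 and 35.8, a difference of 14.2 points that reversed to -4.68 per length. Only region 3 overlapped between the genotypes, at 90.8 and 92.5 in WT and at 91.7 and 92.1 in cKO. Bcl2l1 was also the only one of the 10 genes with both a lost and a gained region. The lost one was intronic (region 6, chr2:152793344-152793752, 39.9 and 45.8 in WT). The gained one lay past the gene and nearest to the Cox4i2 start site (region 10, chr2:152779085-152779762, 32.3 and 13.1 in cKO). The gained call of region 10 ended where a library had to cover 50% of the region to call it and with lists of equal length. It also ended with only the peaks above the median area of their list, which had to remove it, as both its peaks lay below that median. Among the 16367 protein-coding genes with a region, 11.1% had at least 1 gained and 21.8% at least 1 lost.

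Windows at the summits of regions 4 and 6 are shown as the intronic sites of Bcl2l1 with the largest higher difference and with the loss, and none of the 7 motifs matched in either.
Bcl2l1 region 4, chr2:152804927-152805127: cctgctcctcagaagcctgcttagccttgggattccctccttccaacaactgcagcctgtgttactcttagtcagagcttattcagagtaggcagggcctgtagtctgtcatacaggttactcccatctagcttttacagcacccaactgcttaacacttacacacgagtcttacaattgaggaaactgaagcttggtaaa
Bcl2l1 region 6, chr2:152793383-152793583: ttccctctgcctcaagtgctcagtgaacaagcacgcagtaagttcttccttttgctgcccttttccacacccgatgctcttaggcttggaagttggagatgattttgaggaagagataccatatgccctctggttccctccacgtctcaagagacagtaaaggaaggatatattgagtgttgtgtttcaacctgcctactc

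Mcl1 (ENSMUSG00000038612.16, chr3:95658788-95663176, forward strand), a short-lived survival protein that cells must keep making, was split along the gene. The start-site region and both upstream regions called in all 4 libraries were lower in cKO, and 2 regions past the gene were higher. The start-site region stood at 95.6 and 96.6 in WT and at 91.4 and 92.2 in cKO, or 96.1 ± 0.727 against 91.8 ± 0.544 (SD, n = 2 each), a gap of 3.40 points between the nearest libraries. Region 1 upstream stood at 95.1 and 94.99 in WT and at 91.7 and 93.4 in cKO, and region 2 at 67.0 and 72.8 in WT and at 61.0 and 65.3 in cKO. Past the gene, region 6 (chr3:95663931-95664720) stood at 8.04 and 26.7 in WT and at 43.4 and 55.6 in cKO, a difference of 32.2 points that lay above that of 99.0% of all regions called in all 4 libraries. Region 9 (chr3:95668501-95669696) stood at 30.4 and 46.9 in WT and at 66.7 and 66.0 in cKO, a difference of 27.7 points.

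These higher Mcl1 regions were broad and low. Per length, region 6 reached only 0.0592 and 1.12 in WT and 7.27 and 11.6 in cKO, and region 9 only 0.0987 and 1.69 in WT and 8.05 and 10.3 in cKO. Between them lay region 7 (chr3:95664997-95665524), which was gained, at 5.37 and 9.13 in cKO, and region 8, where the genotypes overlapped (41.5 and 50.7 against 39.6 and 42.4). The start-site region and region 6 thus lay on opposite sides of WT. Regions 6 and 7 are shown as neighbouring sites, one higher and one gained, and both held an AP-1 match (capitals), with a RUNX match as the second run of capitals in region 6.
Mcl1 region 6, chr3:95664404-95664604: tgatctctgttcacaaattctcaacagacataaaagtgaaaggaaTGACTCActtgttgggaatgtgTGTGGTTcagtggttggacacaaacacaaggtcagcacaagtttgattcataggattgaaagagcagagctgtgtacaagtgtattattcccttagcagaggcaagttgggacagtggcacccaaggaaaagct
Mcl1 region 7, chr3:95665151-95665351: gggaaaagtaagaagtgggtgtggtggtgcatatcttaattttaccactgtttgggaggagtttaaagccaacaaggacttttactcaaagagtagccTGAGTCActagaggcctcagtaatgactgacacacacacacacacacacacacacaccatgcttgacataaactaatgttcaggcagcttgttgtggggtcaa

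Bcl2 (ENSMUSG00000057329.7, chr1:106538178-106714274, reverse strand), the founding survival gene of the family and at 176 kb the longest of the 10, had 20 regions. Its start-site region stood at 92.1 and 94.3 in WT and at 91.0 and 93.9 in cKO, so the genotypes overlapped. Of the 12 regions called in all 4 libraries, 2 were higher, 3 lower and 7 overlapping, with a median difference of -0.425 points. The higher ones were region 9 (52.2 and 59.0 against 60.6 and 65.0) and region 18 (16.0 and 12.4 against 29.5 and 17.1), both deep in the gene. The lower ones were region 3 (91.9 and 91.9 against 86.9 and 88.8), region 10 (94.8 and 95.04 against 93.9 and 93.9) and region 16 (68.3 and 71.7 against 63.9 and 67.1), the last of which reversed to 11.1 points per length. Region 8 was lost, with weak values of 14.6 and 16.2 in WT. The remaining 7 were called in 1 to 3 libraries, at percentiles from 8.73 to 40.1, and 3 of them appeared in cKO replicate 2 alone.

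Bcl2l2 (ENSMUSG00000089682.10, chr14:54883377-54888234, forward strand), which encodes BCL-W, had 3 regions, all lower in cKO. Among the 7091 protein-coding genes with 3 or more regions called in all 4 libraries, 4.57% had all of them lower. Per length, 1 of the 3 regions was higher and 0 lower, and by the summit -log10 p 1 was lower and 0 higher. Each region also covered the start site of another gene. The region over its own start site, shared with Gm20521, stood at 58.7 and 64.5 in WT and at 44.6 and 58.6 in cKO, or 61.6 ± 4.11 against 51.6 ± 9.93 (SD, n = 2 each). Its difference of -10.0 points was the largest lower difference of the 54 regions, yet the nearest libraries were 0.0759 points apart, and per length it reversed to 8.71. Region 1 (Ppp1r3e) stood at 89.0 and 90.8 in WT and at 81.9 and 88.3 in cKO. Region 3 (Pabpn1) stood at 97.5 and 97.8 in WT and at 95.9 and 97.3 in cKO, and reversed to 1.73 per length.

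**Figure D4:**
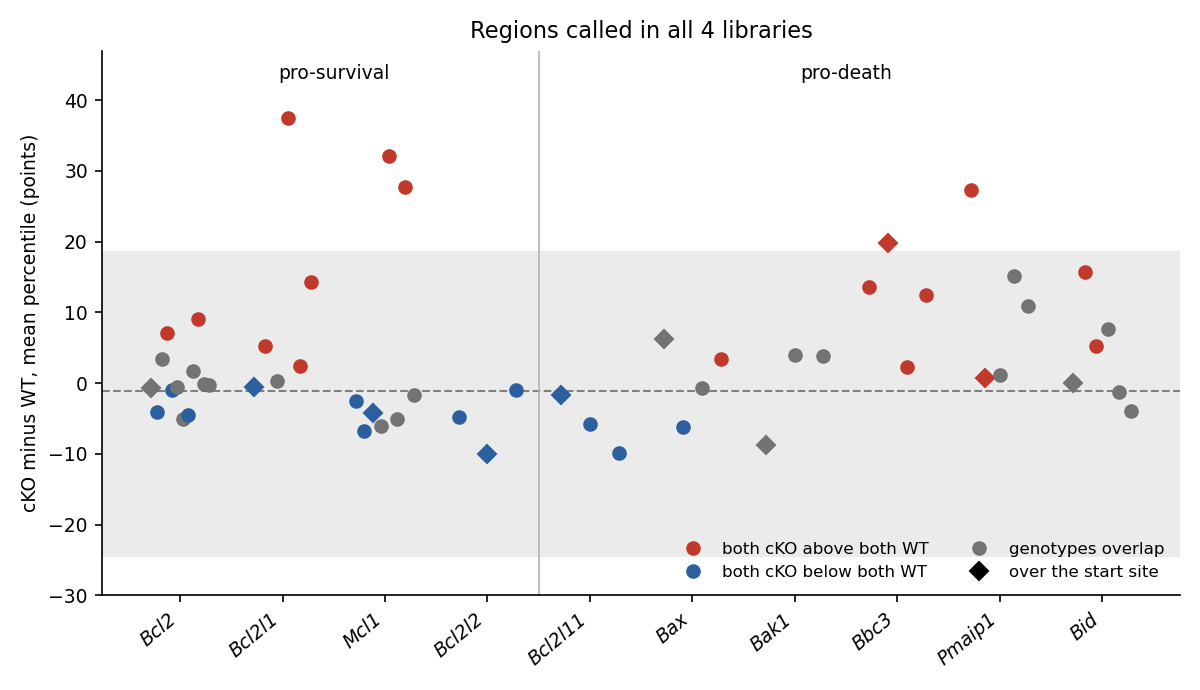
Difference between cKO and WT in mean percentile (vertical axis, points) for the 54 regions called in all 4 libraries, by gene along the horizontal axis and in 5′ to 3′ order within a gene, with red for both cKO libraries above both WT, blue for both below, grey for overlap and diamonds for start-site regions. The grey band spans the 5th to 95th percentile of all 44820 regions (-24.4 to 18.5) and the dashed line is their median (-1.10), and the points farthest above it belong to Bcl2l1 (37.5), Mcl1 (32.2) and Pmaip1 (27.3).

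Of the 17 higher calls, 15 lay away from the start sites of the 10 genes. Among the 44 member regions away from a member's start site and called in all 4 libraries, 15 were higher and 10 lower, beside 22.7% and 35.6% over all regions that cover no protein-coding start site. The sets are not quite alike, since Bcl2l2 regions 1 and 3, both lower, and Bax region 3, overlapping, covered start sites of other genes. Differences are wider away from start sites in general, since the 5th to 95th percentile ran from -26.2 to 20.2 points there and from -13.5 to 9.18 over start sites.

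Each 201 bp summit window was searched on both strands for 7 motifs bound by factors known in macrophages or in the damage response. AP-1 (TGACTCA or TGAGTCA) matched in 12 of the 76 member regions, or 15.8%, beside 13.5% of all regions. It matched in 6 of the 17 higher regions (Bcl2 region 18, Bcl2l1 region 8, Mcl1 region 6, Bbc3 region 5, Pmaip1 region 1 and Bid region 4) and in 2 of the 14 lower ones, beside 22.3% of all higher and 9.93% of all lower regions. The p53 half-site matched in 7 of 76, or 9.21%, beside 6.57% of all regions. Of these, 5 were among the 17 higher regions (Bcl2l1 regions 2 and 7, Bax region 4, Bbc3 region 5 and the Pmaip1 start site) and 0 among the 14 lower ones. Over all regions the half-site was about as common in higher (6.28%) as in lower ones (6.63%). PU.1 (GAGGAAGT) matched in 6 of 76 and in none of the 31 higher or lower regions, beside 11.0% of all. RUNX (AACCACA) matched in 7 (9.21%, beside 8.38% of all regions) and C/EBP (TTGCNNAA) in 7 (9.21%, beside 12.3%). NF-kB matched in 5 (6.58%, beside 4.85%) and ISRE, the element of interferon-stimulated genes, in 2 (2.63%, beside 3.90%). These counts describe letters in a window, were not tested, and say nothing of whether a factor was bound.

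The rest of the pathway was read from a list of 31 further genes, comprising other Bcl2 relatives, caspases, inhibitors of apoptosis, the apoptosome and death receptors. Of these, 29 had at least 1 region, and Bcl2l10 and Bok had none. Together they held 129 regions, and all 4 libraries called 84 of them. In this list 20 of 84 were higher and 30 lower (23.8% and 35.7%), close to the background of all regions, with a median difference of -0.275 points. Gained regions numbered 2 of 129 (1.55%, beside 3.72%) and lost regions 8 of 129 (6.20%, beside 7.25%). Both gained regions lay at Tnfrsf1a, the receptor for TNF, at 10.5 and 39.5 and at 1.52 and 0.798 in cKO. The 8 lost regions lay at Bmf, Bcl2l13, Xiap, Birc2, Birc5, Fas, Fasl and Tnfrsf1a, and the one at Bcl2l13 is the lost region of the Bid window. The loss at Fas, a death receptor, stood at 18.2 and 43.4 in WT, and the loss at Bmf, a BH3-only gene, at 32.1 and 29.3. At Bmf, singled out after its values were seen, 6 of 8 regions called in all 4 libraries were lower and none higher, beside 35.1% lower over all regions.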

How the data were processed

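ATAC-seq was performed on nuclei of 2 WT and 2 cKO BMDM cultures. The authors aligned paired reads to mm10 with Bowtie2 2.5.1 and called peaks with Genrich at default settings, 1 list a library. Read filters, removal of duplicates and any shift of transposase cuts are not given in the sources used here. As deposited, each peak carries its area (a signal that grows with depth), the -log10 p at its summit and a score capped at 1000. No list holds read counts, so depth is unknown and no counting interval could be given.

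Peaks were joined across libraries where they shared at least 1 bp. Areas were ranked within each library, and calls, higher and lower regions were defined as in the text. Window sequences were read from RefSeq's GRCm38.p6. Python 3.11.15, pandas 2.3.3, scipy 1.17.1 and pysam 0.24.0 were used. The calls were tested on simulated lists of near-equal length with large built-in differences, which leaves small shifts in rank untested. Genes and lists were chosen with earlier results of these data known. All 10 genes are named, and their regions are described where they covered the start site, were gained or lost, or did not overlap between genotypes, with further regions named after their values were seen. Regions are numbered 5′ to 3′ along each gene. P-values over these samples would measure only the spread between 2 replicates of each genotype.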

Additional observations from a re-analysis of the deposited data

How the results depend on the processing

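With only the peaks above the median area of their list, 0 member regions were lost and 8 of 30 higher, and 0 of the 2 gained and 12 of the 14 lower calls remained. The reported gained and lost regions lay below the median in each library that called them. This filter had to remove them and does not test those calls. With lists of equal length, 6 were gained, none of them among the 2 reported, and 1 lost, and the pro-survival difference reversed to 7.36 points. With gene bodies alone, 0 were gained, 11 of 37 higher and 9 lower, and the difference in peaks per library (1 in cKO over WT) reversed to -0.5. With 50 kb flanks, 4 were gained, 7 lost, 31 of 98 higher and 27 lower, and the peak difference was -4. Over all regions called in all 4 libraries, 22.2% were higher and 35.1% lower. With regions nearest to the member's own start site, 1 was gained, and the pro-survival and peak differences reversed to 0.154 and -1.5. By the summit -log10 p, the pro-survival difference reversed to 3.51. Among peaks common to all 4 libraries 26 of 54 were higher, beside 36.5% over all regions. The pro-death difference of library medians, 13.5 points, kept its sign in every alternative run, from 0.0861 to 19.5. The genotypes nevertheless overlapped with only the peaks above the median area of their list, with gene bodies alone and with 50 kb flanks (4.07 points). The excess over the pro-survival difference (17.4 points) also kept its sign, from 2.16 to 25.08. For this excess the genotypes overlapped with lists of equal length (2.59 points).

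Leaving out 1 library gave 2 to 8 gained regions (8 without WT replicate 2, 6 without cKO replicate 1) and 3 to 6 lost (6 without WT replicate 1, 5 without cKO replicate 2). Higher regions ran from 18 to 28. There were 26 of 55 without WT replicate 2, beside 41.4% over all regions, and 28 of 55 without cKO replicate 1, beside 38.7%. Lower regions ran from 14 to 28. There were 28 of 60 without WT replicate 1, beside 54.5% over all regions, and 27 of 54 without cKO replicate 2, beside 56.6%. The pro-survival difference ran from -5.47 to 1.44 (without cKO replicate 1), the pro-death difference from 6.58 to 18.4, their contrast from 9.03 (without WT replicate 1) to 19.9, and the peak difference from -4 to 6, below 0 without WT replicate 1 or cKO replicate 2.

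Per length, the differences reversed at Bcl2 region 16 (11.1), Bcl2l1 regions 2 (-5.68) and 8 (-4.68), Bcl2l2 regions 2 (8.71) and 3 (1.73) and Bcl2l11 region 2 (2.07), and by the summit -log10 p at Bcl2l1 region 2 (-2.44) and Bcl2l11 region 2 (1.19). With the highest value per length of a region in place of that of its strongest peak, Bbc3 region 2 also reversed (-9.30), and no other member region changed, since the other regions held at most 1 peak a library. Where a library had to cover 50% of a region to call it, 1 of the 2 gained calls and all 3 lost calls remained. Per length, 8 of the 17 higher and 7 of the 14 lower calls remained. The per-length rankings and the exclusion of Bbc3 were chosen after seeing the data. Causes were not tested.

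The genotypes share replicate numbers, with no source saying that they pair cultures. The gap between replicates 1 and 2 correlated between genotypes at r = 0.295 over 44820 regions and 0.340 over 54 member regions, which share libraries and list lengths. With the replicate number as a block, 22 regions were higher and 21 lower (40.7% and 38.9%, beside 33.3% and 48.7% of all regions), and the gained (2) and lost (3) counts were the same.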
